A study of Mus musculus with 8 samples.

Results

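Zinc finger genes of the mouse sit in tandem clusters, and 174 of them, of 21281 protein-coding genes on chromosomes 1 to 19, are described here by the histone modifications over their promoters, gene bodies and last exons. A gene was taken when its symbol was Zfp followed by digits alone and the transcription start site (TSS) of another such gene lay within 100 kb on the same chromosome in the GENCODE vM1 annotation of mm9. Of 333 Zfp symbols, 174 met the distance and 159 did not. These 159 are the unclustered Zfp genes below. Other genes are all 21107 genes outside the 174, the 159 included. The rule used no measured value. At its edge, Zfp738 was the member farthest from a neighbour, at 92.6 kb, and Zfp263 was the nearest gene left out, at 103 kb.

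Most genes of this kind encode proteins in which an array of C2H2 zinc fingers binds DNA, often behind an amino-terminal KRAB domain. The KRAB domain recruits Trim28, which brings the H3K9 methyltransferase Setdb1 and heterochromatin protein to the bound site, and many of the proteins silence transposable elements. The clusters grew by tandem duplication, and the array is usually coded by a single last exon. In other cells these genes are known to carry H3K9me3 together with H3K36me3 over that exon, although H3K9me3 was not among the marks measured here.

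The study compared LLC-NR with LLC-R tumors. LLC is a Lewis lung carcinoma line of C57BL origin. LLC-NR is sensitive to VEGF-Trap, a decoy receptor that binds vascular endothelial growth factor, and LLC-R was derived from LLC by repeated selection in mice under VEGF-Trap. Both were grown as subcutaneous isografts in young C57BL/6J female mice, and nuclei of dissected tumor tissue, host cells included, were digested with micrococcal nuclease and immunoprecipitated with antibodies to H3K4me3, H3K9ac, H3K27me3 or H3K36me3. How the tumors of the mice were divided among libraries is not given in the sources used here.

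There was 1 library for each line and mark, 8 in all, so no comparison below has a replicate check and none was tested. The libraries held between 5660458 and 9101721 peaks, each 147 bp wide, the length of DNA on a nucleosome, with no height. Intervals given below are exact 95% intervals that cover counting error only. They treat peaks as independent, which neighbouring nucleosomes are not. In LLC-R the H3K27me3 and H3K36me3 libraries held more peaks than in LLC-NR, 9101721 against 7245090 and 8747519 against 6432447, and the H3K9ac library fewer, 7853593 against 8547101. H3K4me3 was close, with 5660458 against 5678337. The log2 ratio of uniquely mapped reads, LLC-R to LLC-NR, was 1.10 for H3K27me3, 1.21 for H3K36me3, -0.80 for H3K9ac and -0.27 for H3K4me3. The part of read depth in the differences between the lines was not tested. No promoter of any gene held more than 9 peaks of a mark, since peaks did not overlap, so the number of peaks is bounded and a difference near the bound is compressed.

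The 174 genes formed 48 clusters on 12 chromosomes. Chromosome 7 held 67 of them, chromosome 17 held 27 and chromosome 13 held 21. Of the clusters, 24 of 48 were pairs. The largest held 14 genes between TSSs at chr7:30553571-30954746, among them Zfp30, Zfp568, Zfp260 and Zfp146. The next held 11 genes on chromosome 13, from Zfp712 to Zfp459, then 10 on chromosome 7, from Zfp180 to Zfp94, and 8 on chromosome 17, from Zfp871 to Zfp563. The translated gene models held a median of 12 matches to the C2H2 pattern, and 171 of 174 held at least 3. The last exon coded 92.5% of the 2053 matches, and in 162 genes it coded all of them.

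The sequence of a finger is shown because it is what the members share, and because reads could be placed only where it is unique. Each line runs 5′ to 3′ on the coding strand in mm9, from the linker in front of a finger to the linker behind it, with both linkers in capitals. The stretches lie in the last exons of Zfp30, at chr7:30578146-30578243 on the + strand, of Zfp960, at chr17:17224446-17224543 on the + strand, and of Zfp97, at chr17:17281661-17281758 on the + strand.
Zfp30: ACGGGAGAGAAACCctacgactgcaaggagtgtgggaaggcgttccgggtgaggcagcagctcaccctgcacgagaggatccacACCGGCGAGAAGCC
Zfp960: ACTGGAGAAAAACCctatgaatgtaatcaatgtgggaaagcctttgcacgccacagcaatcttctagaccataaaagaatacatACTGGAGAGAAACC
Zfp97: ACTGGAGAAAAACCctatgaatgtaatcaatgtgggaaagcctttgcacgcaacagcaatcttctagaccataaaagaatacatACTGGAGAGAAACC

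The stretches of Zfp960 and Zfp97 were the same at 97 of 98 bases and differed by C52A, counted from 1 at the first base printed, with the base of Zfp960 first. Zfp30 and Zfp960 were the same at 57 of 98 bases. The authors kept only reads that mapped to a single place. In the Zfp30 stretch 100% of 32-base words occurred once in the genome, and in those of Zfp960 and Zfp97 47.8% did. The linker, the residues TGEKP, searched as ACNGGNGANAANCC with N for any base, was present on the coding strand in 143 of 162 member last exons measured (88.3%). It was found in 64 of 139 of the unclustered Zfp genes (46.0%). Of the last exons of all other genes, those 139 included, 214 of 12437 held it (1.72%). Searched on both strands, the shares were 88.3% and 1.89% for members and all other genes. The motif was searched as bases and was not matched to a binding site.

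Promoters of neighbours can also be copies of each other or the same DNA. The stretch between the divergent start sites of Zfp942 and Zfp943, at chr17:22099432-22099518, contains the whole stretch between those of Zfp944 and Zfp758, at chr17:22498368-22498419. Both are printed on the + strand of mm9 with CpG dinucleotides in capitals.
Zfp942/Zfp943: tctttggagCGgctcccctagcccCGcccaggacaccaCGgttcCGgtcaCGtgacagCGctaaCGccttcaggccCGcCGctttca
Zfp944/Zfp758: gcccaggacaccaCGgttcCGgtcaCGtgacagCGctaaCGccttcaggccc

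The TSSs of these pairs lie 88 bp and 53 bp apart, and none of the 32-base words that start between them was unique (0%). The promoter windows still held peaks, 6 and 7 of H3K4me3 in LLC-NR for Zfp942 and Zfp943 and 5 and 7 for Zfp944 and Zfp758, from the sequence on either side. Zfp882 and Zfp617 start 27 bp apart on the same strand, so their promoter windows hold the same peaks. In all, 8 member promoters overlapped the promoter of another member, and the values of such pairs are not separate observations.

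Promoters of the clustered genes carried somewhat more H3K4me3, the mark of active or poised start sites, than those of other genes. In a window reaching 1 kb before and 0.5 kb after the TSS, members held 5.66 ± 1.53 peaks (mean ± SD over 174 genes) in LLC-NR against 4.97 in the 21107 other genes. That is 1.14-fold, with an interval of 1.07 to 1.21. In LLC-R it was 5.04 ± 1.56 peaks against 4.66, or 1.08-fold (1.01 to 1.15). The promoters differed in CpG class. CpG-rich promoters made up 60.3% of members (105 genes) and 54.7% of other genes, and CpG-poor ones 14.4% and 28.4%. Among CpG-rich promoters the H3K4me3 ratio was 1.02 in LLC-NR (0.944 to 1.10) and 0.986 in LLC-R (0.908 to 1.07), and both intervals included 1.

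H3K9ac, which marks active start sites, followed at 6.05 peaks per member promoter in LLC-NR and 5.32 in LLC-R. These were 1.09-fold (1.02 to 1.15) and 1.06-fold (0.994 to 1.13) of other genes. Among CpG-rich promoters the H3K9ac ratios were 1.08 (0.997 to 1.16) and 1.04 (0.961 to 1.13), and both intervals included 1. H3K27me3, laid down by Polycomb complexes over silent genes, was lower, at 4.17 peaks per member promoter in LLC-NR against 4.60 (0.907-fold, 0.843 to 0.976). In LLC-R it was 5.17 against 5.50, or 0.941-fold with an interval that reached 1 (0.8805 to 1.0045). Among CpG-rich promoters the H3K27me3 ratios were 0.939 (0.855 to 1.03) and 0.945 (0.868 to 1.03), and both intervals included 1. H3K36me3, deposited by Setd2 behind elongating polymerase, was near other genes at promoters, with ratios of 1.08 and 0.995. Unclustered Zfp genes had H3K4me3 ratios of 1.12 and 1.11 and H3K27me3 ratios of 0.915 and 0.936. The intervals of clustered and unclustered genes overlapped for these marks.

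**Figure D1:**
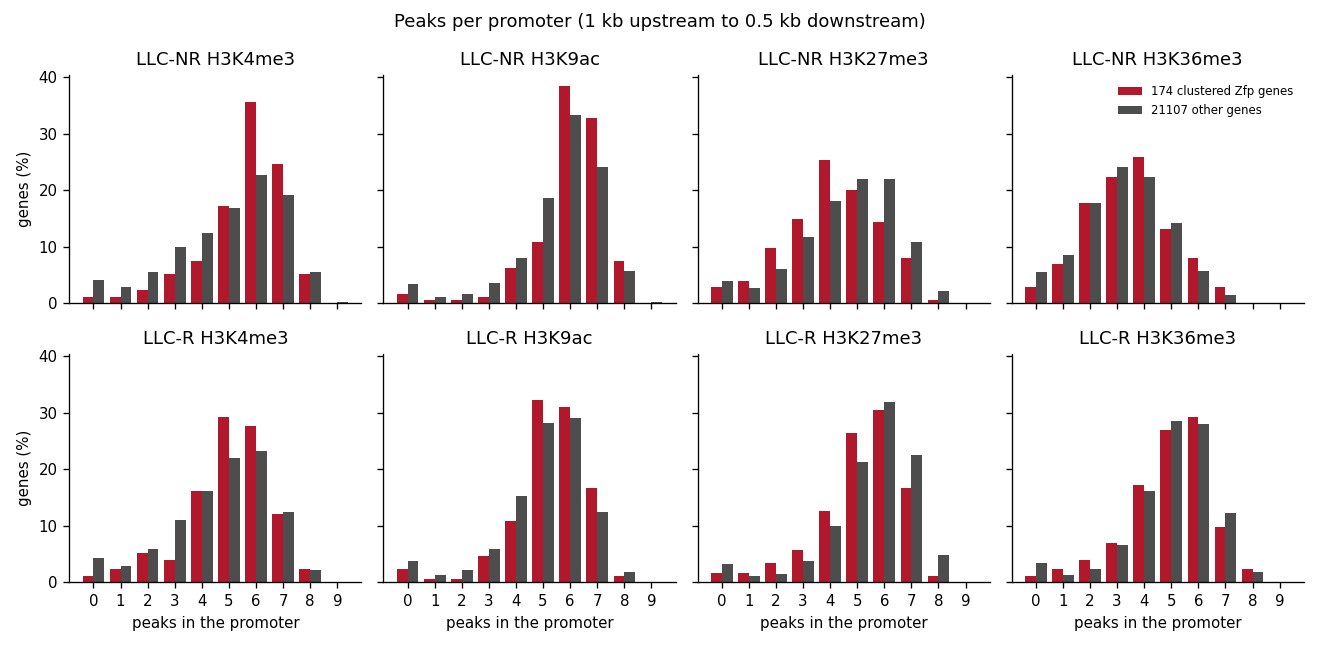
Share of genes (%) by the number of peaks in the promoter, for 174 clustered Zfp genes and 21107 other genes in each of the 8 libraries. The distributions overlap and members reach at most 8 peaks. In LLC-NR 35.6% of members and 22.7% of other genes have 6 H3K4me3 peaks, and 25.3% and 18.1% have 4 H3K27me3 peaks.

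Each promoter was put in a state by comparing its peaks with the mean of all promoters in the library. Active promoters had H3K4me3 or H3K9ac at or above the mean with H3K27me3 below it, bivalent promoters had both, repressive ones H3K27me3 alone. The methods of the study use these names with a higher cut for H3K4me3 and H3K9ac, on normalized tag counts. The shares below are therefore not those of the study. In LLC-NR 80 of 174 members were active (46.0%, 38.4 to 53.7), against 30.0% of other genes. Bivalent promoters were 41.4% of members, repressive ones 1.72% (3 genes) and promoters of no state 10.9%, where other genes had 49.3%, 8.02% and 12.7%. Among CpG-rich promoters 50.5% of members (40.5 to 60.4) and 40.2% of other genes were active. Unclustered Zfp genes had 41.5% active, within the interval of members. These shares moved with the window: with a promoter from 0.5 kb upstream, 59.2% of members were active and 28.2% bivalent in LLC-NR, beside 41.7% and 35.3% of other genes.

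In LLC-R 63 members were active (36.2%, 29.1 to 43.8) against 25.4% of other genes, 74 bivalent, 10 repressive and 27 of no state. Among CpG-rich promoters in LLC-R, 43.8% of members were active (34.1 to 53.8), an interval that included the 36.6% of other genes. Unclustered Zfp genes had 37.7% active in LLC-R. Between the lines 110 of 174 members kept their state (63.2%), against 59.0% of other genes. Of the 80 active in LLC-NR, 46 were active and 25 bivalent in LLC-R.

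**Figure D2:**
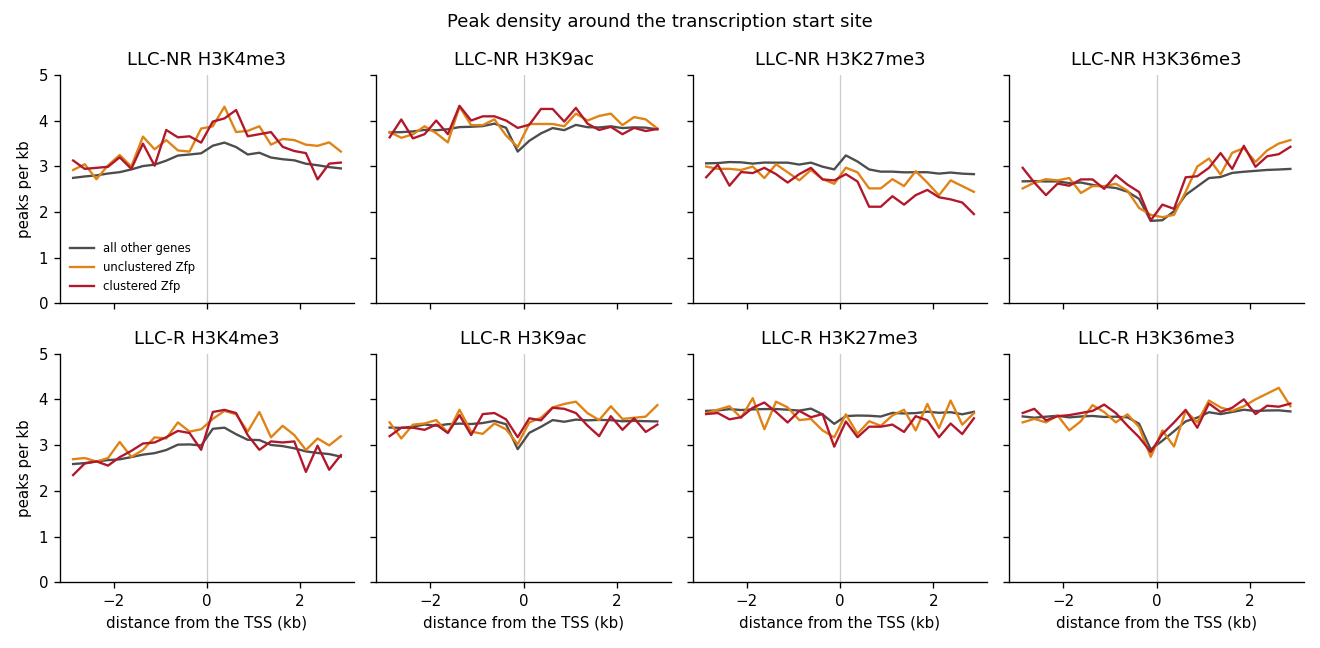
Peaks per kb in 250 bp bins over 3 kb on each side of the TSS, for clustered Zfp genes, unclustered Zfp genes and all other genes in each library. All other genes include the unclustered Zfp genes. LLC-NR H3K27me3 steps down at 0.5 kb downstream, from 2.67 to 2.11 in clustered and from 2.87 to 2.52 in unclustered Zfp genes. H3K36me3 of all groups is lowest at the TSS. In LLC-R, H3K9ac and H3K27me3 of all groups are also lowest in the bin just upstream of it. The same bin is lowest for LLC-NR H3K9ac of unclustered Zfp genes and all other genes.

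Gene bodies of the clustered genes held less H3K27me3 than those of other genes. In LLC-NR, H3K27me3 density over member bodies was 2.25 peaks per kb (6294 peaks) against 2.87 in other genes, a ratio of 0.787 (0.767 to 0.806). Members were below other genes on both sides of the TSS. In the 250 bp bins upstream, up to 3 kb away, members held 2.57 to 3.03 peaks per kb, unclustered Zfp genes 2.62 to 3.04 and other genes 2.93 to 3.09. From 0.5 to 3 kb downstream members held 1.95 to 2.48, unclustered Zfp genes 2.36 to 2.89 and other genes 2.83 to 2.93. In LLC-R the body density was 3.36 peaks per kb against 3.72, a ratio of 0.903 (0.885 to 0.921). Unclustered Zfp genes had ratios of 0.952 and 0.997, and their intervals, 0.938 to 0.967 and 0.984 to 1.01, did not meet those of the clustered genes. These ratios are of summed densities, and unclustered genes were not matched to members by length. Median densities per gene in LLC-NR were 2.27 in members, 2.55 in unclustered Zfp genes and 2.73 in other genes. In LLC-R they were 3.53, 3.68 and 3.79. H3K27me3 was below the density of other genes in 20 of the 24 clusters of at least 3 genes in LLC-NR and in 17 of 24 in LLC-R.

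Over the same bodies H3K36me3 was higher than in other genes in LLC-NR, at 3.27 peaks per kb against 2.93 (1.12-fold, 1.09 to 1.14), but not in LLC-R, where 3.77 stood against 3.74 (1.01-fold, 0.990 to 1.03). H3K4me3 was 1.20-fold in LLC-NR (1.17 to 1.23) and 1.10-fold in LLC-R (1.08 to 1.13). H3K9ac was at 0.984-fold and 0.951-fold.

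Member bodies had a median of 13.6 kb against 15.6 kb, and the body density of other genes differed with length. Among genes from 8.35 to 19.9 kb long, the middle range of members, the H3K27me3 ratios were 0.849 in LLC-NR and 0.962 in LLC-R, H3K36me3 ratios 1.14 and 1.05, and H3K4me3 ratios 1.10 and 1.04. The H3K4me3 and H3K27me3 ratios were nearer to 1 than over all genes in both lines, and the interval of the LLC-R H3K36me3 ratio, 1.02 to 1.08, no longer included 1.

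Members with little unique sequence held few peaks. The share of 32-base words of the gene body that occur once in the genome had a median of 91.4% in members and 94.0% in other genes. It ranged from 3.16% upward, with 73 members below 90% and 8 below 50%. Across the 174 members, body density was higher with a higher unique share in all libraries, with Spearman correlations from 0.379 for LLC-NR H3K36me3 to 0.718 for LLC-R H3K9ac. The points share their libraries and many share a cluster, so these are a description. The 18 members under 70% had a median of 0.929 H3K27me3 peaks per kb in LLC-NR, and the 101 members at or above 90% had 2.49.

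**Figure D3:**
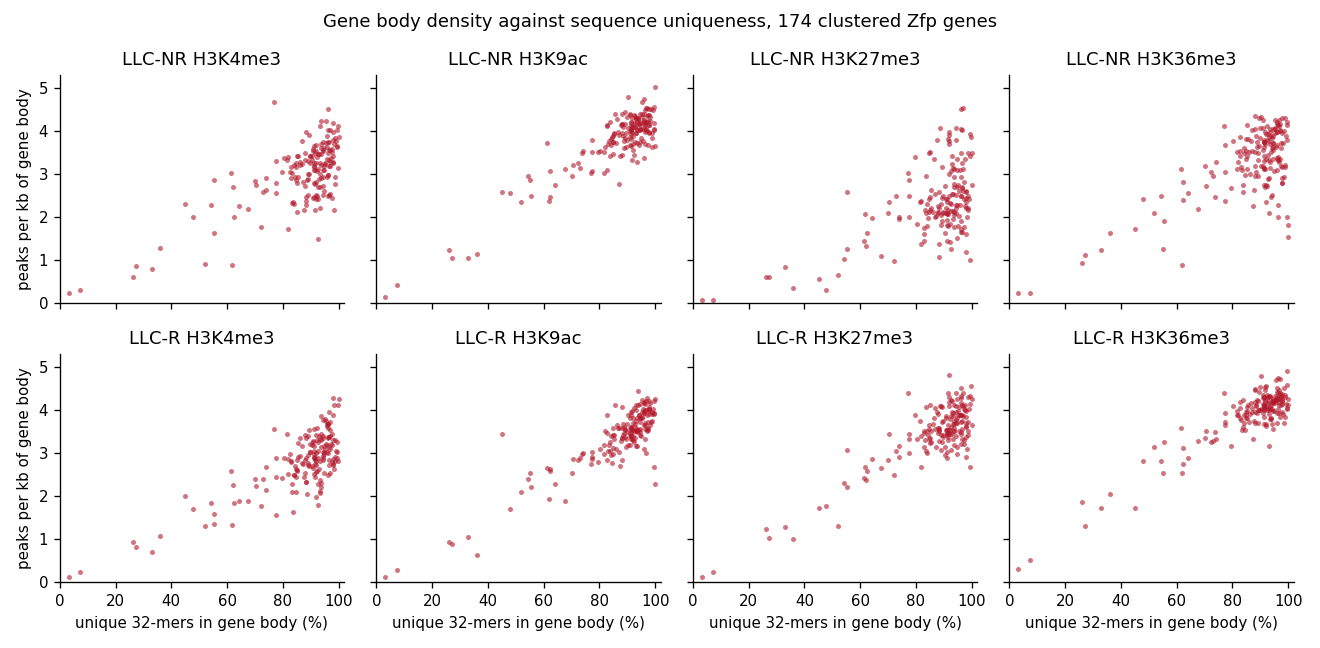
Gene body density (peaks per kb) of each of the 174 clustered Zfp genes against the share of its 32-base words that occur once in the genome (%), by library. Genes under 40% lie near the bottom in all 8 panels, and genes above 80% spread widely for LLC-NR H3K27me3.

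Restricted to genes at or above 90%, 101 members and 14753 others, the H3K27me3 ratios were 0.845 in LLC-NR and 0.951 in LLC-R. H3K4me3 ratios were 1.26 and 1.17, H3K36me3 ratios 1.14 and 1.05, and H3K9ac ratios 1.03 and 1.01. On the log2 scale the LLC-R H3K27me3 difference went from -0.15 over all members to -0.07 with this limit. The LLC-R H3K9ac difference changed sign, from -0.07 to 0.01.

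Zfp960 and Zfp97, neighbours on chromosome 17 at 17201077 to 17226592 and 17258379 to 17283795, were the extreme. Their promoters held 0 peaks in all 8 libraries. Unique words made up 4.07% of the Zfp960 promoter and 0% of that of Zfp97, so the windows could hold few or no mapped reads and the zero counts say nothing of the marks. Among other genes 2.46% had no promoter peak in any library.

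The last exon was examined for H3K36me3, since it codes the fingers. It could be measured in 162 of 174 members, with a last exon of at least 0.5 kb and at least 1 kb of body between 0.5 kb downstream of the TSS and that exon. Member last exons were longer, with a median of 2.32 kb against 1.43 kb, and 54.4% coding against 18.6%. H3K36me3 was denser in the last exon than in the rest of the body in 128 of 162 members in LLC-NR and in 127 in LLC-R. Of all 12599 genes measured, 8739 in LLC-NR and 8935 in LLC-R had it denser there. The summed densities of members were 3.75 against 3.28 peaks per kb in LLC-NR and 4.16 against 3.76 in LLC-R. The median share of unique words was 98.2% in last exons of members and 90.2% in the rest. In other genes it was 99.97% and 94.1%.

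Other genes had a difference of similar size. The median log2 ratio of last exon to rest was 0.20 for members in LLC-NR (0.15 to 0.25) and 0.18 for other genes, and in LLC-R 0.14 (0.11 to 0.17) and 0.13. Ratios of at least 1.5-fold were found in 18 of 162 members (11.1%, 6.72 to 17.0) in LLC-NR beside 15.9% of all genes, and 6 (3.70%, 1.37 to 7.89) in LLC-R beside 7.56%. The other marks were also denser in the last exon of members, with median log2 ratios in LLC-NR of 0.07 for H3K4me3, 0.05 for H3K9ac and 0.21 for H3K27me3, where other genes had 0.10, 0.11 and 0.16. Ratios of at least 1.5-fold in LLC-NR were found for H3K4me3 in 13.0% of members beside 17.4% of all genes, for H3K9ac in 6.79% beside 7.44% and for H3K27me3 in 22.2% beside 18.1%. The same shares in LLC-R were 15.4% beside 16.6%, 8.02% beside 8.92% and 8.64% beside 8.07%. In the coding part of the exon alone LLC-NR had an H3K36me3 median of 0.26 over members and LLC-R of 0.20, where other genes had 0.19 in both. There 15.2% of members reached 1.5-fold in LLC-NR beside 23.4% of all genes, and 8.86% in LLC-R beside 15.2%. Members and all genes in these shares are those with at least 0.5 kb of coding last exon, 2677 genes in all.

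**Figure D4:**
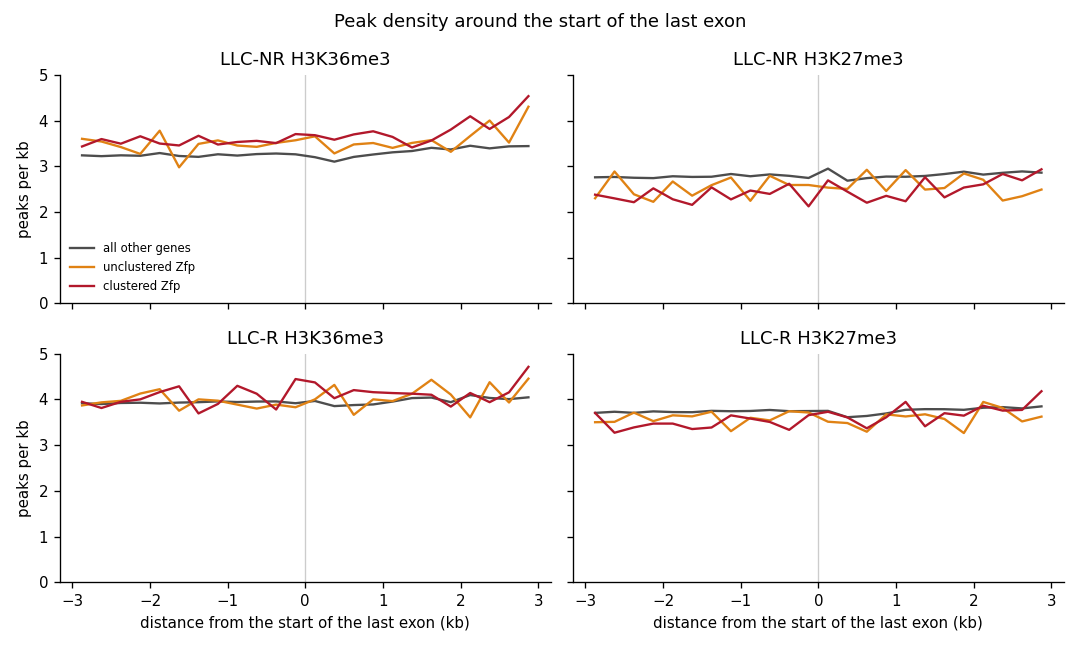
Peaks per kb of H3K36me3 and H3K27me3 in 250 bp bins around the start of the last exon, for clustered Zfp genes, unclustered Zfp genes and all other genes, each bin over the genes that extend to it. All other genes include the unclustered Zfp genes. In LLC-NR the clustered genes lie above other genes for H3K36me3 and below them for H3K27me3 on most bins of both sides, with no step at the exon start. The right-most bins hold 45 clustered genes.

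Extremes among single members went with sequence uniqueness. Zfp59 had 0 H3K36me3 peaks in its last exon in both lines against 3.69 and 4.09 peaks per kb in the rest of its body, and 23.5% of its last exon was unique. Zfp617 had 1.53 peaks per kb in the last exon and 3.81 in the rest in LLC-NR, with 19.99% unique. The last exons of Zfp28, Zfp114 and Zfp934, also among the lowest, were 48.9%, 27.004% and 21.0% unique. At the other end, Zfp97, Zfp960 and Zfp442 had more unique sequence in the last exon, 11.04%, 9.22% and 49.7%, than in the whole gene, 3.16%, 7.44% and 27.2%. Zfp772 was 72.0% unique in the last exon and 52.0% in the gene. Of the 10 genes named by this ratio, only Zfp784 had a fully unique last exon. In LLC-NR it held 2.94 peaks per kb there and 0.68 in the rest. The gene is 4.01 kb long with a last exon of 2.04 kb, so the rest is short and its density rests on few peaks. The values in LLC-R were 4.41 and 4.09.

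Between the lines, promoters of members more often had fewer H3K4me3 peaks in LLC-R than more. In LLC-R 43 of 174 members had at least 2 fewer H3K4me3 peaks than in LLC-NR (24.7%, 18.5 to 31.8), where 18.4% of all genes did. Only 6 had at least 2 more (3.45%, 1.28 to 7.35), where 8.99% of all genes did. Among CpG-rich promoters, 23.8% of members had at least 2 fewer (16.04 to 33.1), an interval that included the 19.2% of other genes. At least 2 more were found there in 1.905% of members (0.232 to 6.71), an interval that included the 5.83% of other genes. Unclustered Zfp genes had 20.1% with at least 2 fewer and 5.03% with at least 2 more, within the intervals of all 174 members. For H3K9ac, 36 members had at least 2 fewer (20.7% beside 22.2%) and 1 had at least 2 more (0.575% beside 5.31%). For H3K27me3, 54 had at least 2 more (31.03% beside 32.1%) and 5 at least 2 fewer (2.87% beside 3.54%). For H3K36me3, 93 had at least 2 more (53.4% beside 56.4%) and 5 at least 2 fewer (2.87% beside 1.1%). The shares with more H3K27me3 and H3K36me3 peaks were near those of all genes.

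Promoter changes from LLC-NR to LLC-R were taken as sums over members, relative to the ratio in other genes. They were -0.07 on the log2 scale for H3K4me3 (-0.21 to 0.06), -0.04 for H3K9ac, 0.05 for H3K27me3 and -0.12 for H3K36me3, and each interval included 0. Scaled by the peaks of the library, H3K4me3 differed by -0.16 (-0.29 to -0.03). Scaled by uniquely mapped reads, the values were 0.11, 0.62, -0.79 and -0.70 in the same order of marks.

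The largest negative differences in H3K4me3 peaks were in Zfp60, with 7 for LLC-NR and 3 for LLC-R, and in Zfp617 and Zfp882, with 8 and 4 in the window they share. Zfp101 and Zfp334 had 7 and 4. H3K9ac was at 7 and 5 in Zfp101, 6 and 4 in Zfp334 and 5 and 4 in Zfp60, and at 6 in both lines in the Zfp617 and Zfp882 window. H3K27me3 was at 4 and 6 in Zfp101 and 6 and 7 in Zfp334, and both were classed repressive in LLC-R. The largest positive difference was in Zfp454, with 3 and 6 H3K4me3 peaks. Its neighbour Zfp2 had 4 and 6, as did Zfp27 and Zfp457, and Zfp566 had 5 and 7. In these 5 genes H3K9ac differed by at most 2 peaks, and in Zfp457 it was at 7 and 5. Without replicate libraries, a difference of 2 to 4 peaks in a single promoter cannot be told apart from the difference between preparations.

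Over gene bodies the relative changes were larger than their counting error. H3K27me3 of members was higher in LLC-R by 0.20 (log2, 0.15 to 0.25) beyond the ratio in other genes, where the LLC-NR library had 6294 peaks and that of LLC-R 9373. H3K36me3 differed by -0.15 (-0.19 to -0.11), H3K4me3 by -0.12 (-0.17 to -0.08) and H3K9ac by -0.05 (-0.09 to -0.01). These are changes relative to other genes. When libraries were scaled by their uniquely mapped reads, the sign turned for H3K27me3 (-0.53), H3K4me3 (0.16) and H3K9ac (0.63), and H3K36me3 went to -1.01. Unclustered Zfp genes, relative to other genes, changed in H3K27me3 by 0.07 (0.04 to 0.10). Their values were -0.01 for H3K36me3, 0.02 for H3K4me3 and 0.02 for H3K9ac, with intervals that included 0. The number of peaks a region can hold is bounded, and the part of this bound in the H3K27me3 value of members was not tested.

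The body changes were also scaled to the surrounding region, the peaks within 1 Mb of each member TSS. Only member promoters were left out, so these windows hold member bodies, and windows of neighbours overlap. The scaled values were 0.18 for H3K27me3, -0.22 for H3K36me3, -0.07 for H3K4me3 and -0.02 for H3K9ac. With this scaling H3K36me3 was farther from 0 and the other marks were nearer to it. Of the 24 clusters with at least 3 genes, relative H3K36me3 density was lower in LLC-R in 19 member sets but in 9 of the flanking regions. For H3K4me3 it was lower in 19 and 13. For H3K27me3 it was lower in 3 member sets and 8 flanks.

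**Figure D5:**
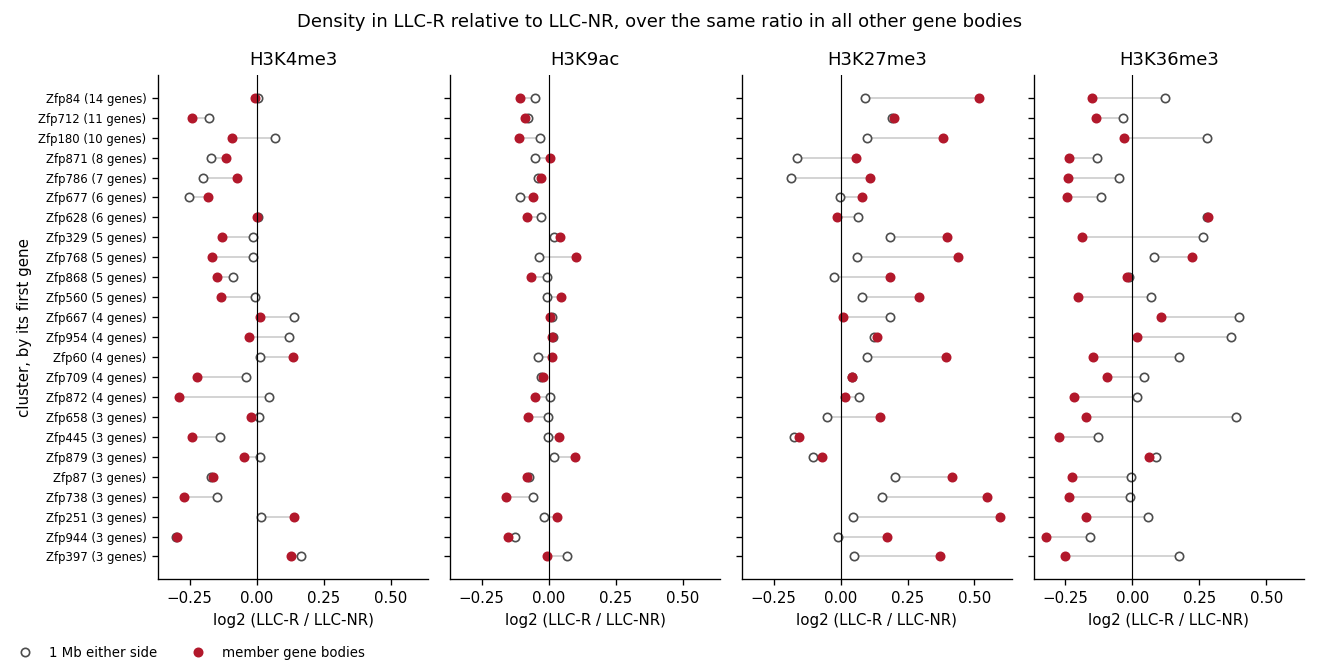
Log2 ratio of peak density in LLC-R to LLC-NR, over the same ratio in all other gene bodies, for the 24 clusters of at least 3 genes. Filled points are member gene bodies. Open points are the 1 Mb either side of member TSSs, which include member bodies but not member promoters. H3K27me3 of members lies right of 0 in 21 clusters, and H3K36me3 of members lies left of its flank in 22.

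The 14-gene cluster on chromosome 7 had the lowest H3K27me3 density of the 4 largest clusters in LLC-NR, 1.80 peaks per kb, and 3.34 in LLC-R, a relative change of 0.52 where its flanks changed by 0.09. H3K36me3 there was 3.55 and 4.08 peaks per kb. The 10-gene cluster on chromosome 7 went from 1.98 to 3.34 H3K27me3 peaks per kb. The 11-gene cluster on chromosome 13 went from 2.35 to 3.49, a relative change of 0.20 beside 0.19 in its flanks. The 8-gene cluster on chromosome 17 had the highest density of the 4 in LLC-NR, 2.82, and 3.81 in LLC-R, a relative change of 0.06 beside -0.16. The relative H3K4me3 change was -0.24 in the chromosome 13 cluster, where the flanks had -0.18, and -0.01 in the 14-gene cluster.

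Members with a known role are given in every library. Zfp568, at chr7:30768974-30813301, represses a placental transcript of Igf2. Its promoter held 6 H3K4me3 peaks in both lines, 7 and 6 of H3K9ac in LLC-NR and LLC-R, 4 and 5 of H3K27me3, and 3 and 5 of H3K36me3. It was active in both lines. Its body H3K27me3 was low in LLC-NR, 1.38 peaks per kb, and 3.27 in LLC-R, with H3K36me3 at 3.88 and 4.11.

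Zfp809, at chr9:22030274-22047641, silences retroviruses that use the proline tRNA primer site. Its promoter held 6 and 5 peaks of H3K4me3, 6 and 5 of H3K9ac, 4 and 5 of H3K27me3 and 4 and 6 of H3K36me3, and it was active in both lines. Body H3K27me3 was 1.61 and 3.45 peaks per kb. Its last exon was too short to be measured.

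Zfp445, at chr9:122761032-122771246, protects methylation at imprinted loci. Its CpG-poor promoter held 6 H3K4me3 peaks in both lines, with 7 and 5 of H3K9ac, 4 and 7 of H3K27me3 and 5 in both of H3K36me3. It was active in LLC-NR and bivalent in LLC-R. Zfp146, known for a protein made almost wholly of fingers, at chr7:30946293-30954746, had 7 and 6 peaks of H3K4me3, 6 and 5 of H3K9ac, 4 and 6 of H3K27me3 and 3 and 5 of H3K36me3, and its class changed in the same way.

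Zfp30, linked to neutrophil recruitment in the airway, at chr7:30569017-30579721, held 7 H3K4me3 peaks and 4 H3K27me3 peaks in both lines. H3K9ac was at 6 and 5 and H3K36me3 at 3 and 6. Zfp260, a cardiac cofactor of Gata4, at chr7:30879796-30892641, had 7 and 6 of H3K4me3, 6 of H3K9ac in both, 3 and 5 of H3K27me3 and 1 and 3 of H3K36me3. Zfp110, which binds the neurotrophin receptor p75, at chr7:13420110-13435926, had 6 and 5 of H3K4me3 and of H3K9ac, 2 and 5 of H3K27me3 and 5 and 3 of H3K36me3. All were active in both lines. Of the 7 genes with a known role, 7 were active in LLC-NR, 5 of them also in LLC-R. The active shares in LLC-NR and LLC-R were 46.0% and 36.2% of members and 30.0% and 25.4% of other genes. In each of the 7 genes H3K4me3 differed by at most 1 peak.

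The partners of KRAB zinc finger proteins were read in the same way. All 22 genes of a list of KRAB corepressors were found, 20 with CpG-rich promoters. In LLC-NR 9 were active and 13 bivalent, and in LLC-R 11 were active, 9 bivalent, 1 repressive and 1 of no state. Of the CpG-rich promoters of other genes 40.2% were active and 52.6% bivalent in LLC-NR. Their shares for LLC-R were 36.6% and 52.0%. H3K4me3 had at least 2 fewer peaks in LLC-R in 3 and at least 2 more in 0, beside 18.4% and 8.99% of all genes. Trim28 had 6 and 5 H3K4me3 peaks and 6 and 5 of H3K27me3. Setdb1 had 5 and 6 of H3K4me3 and 4 of H3K27me3 in both. Of 14 genes of H3K36 methylation, 7 were active and 7 bivalent in LLC-NR, with at least 2 fewer H3K4me3 peaks in LLC-R in 2 and at least 2 more in 1. Setd2, which writes H3K36me3, had 6 and 5 H3K4me3 peaks and was active in both lines.

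Host cells were part of the tissue, and their markers were read in the same way. Among 7 leukocyte markers LLC-NR had a mean of 4.57 H3K4me3 promoter peaks and LLC-R of 3.71, with 2 active and then 1 active. Among 5 endothelial markers it was 4.80 and 3.80, among 4 fibroblast markers 5.50 and 5.75, and among 5 lung epithelial markers 4.80 and 5.20, with all 5 bivalent in both lines. The mean of other genes was 4.97 and 4.66. Genes within a list differed. Among leukocyte markers, H3K4me3 had 5 and 6 peaks at Cd68 of macrophages, 4 in both lines at Csf1r and 3 in both at Emr1. It had 7 and 4 at Ptprc, 5 and 3 at Cd79a, 6 and 5 at Itgam and 2 and 1 at Cd3e. The endothelial receptor Tek had 3 and 5. The other endothelial markers had 4 and 2 (Tie1), 6 and 4 (Kdr), 5 and 3 (Cdh5) and 6 and 5 (Pecam1). H3K9ac at endothelial markers was higher in LLC-R by a mean of 0.6 peaks. The mean difference was -1.57 at leukocyte, -1.5 at fibroblast and -0.8 at lung epithelial markers, and -0.55 over other genes. The part of host cells in the values of members was not tested.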

How the data were processed

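ChIP-seq with micrococcal nuclease was done on LLC-NR and LLC-R isografts, with 1 library per line and mark and no input library used here. Per the methods and the labels, Bowtie 0.12.7 was used by the authors to map reads to mm9. They kept uniquely mapped reads and called fixed-width peaks with GeneTrack. The deposited files hold positions only, as peaks 147 bp wide and not overlapping, without height, so no stricter peak threshold could be tried.

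Peaks were counted by midpoint (Python 3.11.15, NumPy 2.4.6, pandas 2.3.3) in gene models of GENCODE vM1, with 1 model per symbol, that of the longest coding sequence. Promoters reached 1 kb before and 0.5 kb after the TSS. CpG-rich promoters held a 500 bp interval of at least 55% GC with an observed to expected CpG ratio of at least 0.6, and CpG-poor ones none with a ratio of at least 0.4. Last exon ratios used a pseudocount of 0.5 peaks. LLC-R was compared with LLC-NR relative to all other genes. One alternative scaled libraries by the totals of uniquely mapped reads that the study gives. A 32-base word is unique when it occurs once in mm9 on either strand. The length of 32 was chosen here, and the read length is not given in the sources used here. Intervals are exact Poisson or Clopper-Pearson intervals (SciPy 1.17.1). Counts, clusters and unique words were checked against brute force.

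Named genes were the 5 largest rises and falls of promoter H3K4me3, the 5 highest and lowest last exon ratios of H3K36me3 in last exons of at least 1 kb, members without a promoter peak, members with a known role and the 4 largest clusters. Members and lists were chosen with earlier results of these data known.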

Additional observations from a re-analysis of the deposited data

How the results depend on the processing

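Of 300 values recomputed under other settings for 40 results, 241 stayed within their counting interval, 53 left it and 6 changed sign. Differences below are log2 values, for members against other genes or for LLC-R against LLC-NR. Restricted to CpG-rich promoters, the promoter H3K4me3 difference of LLC-NR was 0.030 and that of LLC-R -0.020, against 0.11 in LLC-R over all promoters. Scaled by uniquely mapped reads, the promoter change was 0.11 for H3K4me3, 0.62 for H3K9ac, -0.79 for H3K27me3 and -0.70 for H3K36me3. In gene bodies it was 0.16, 0.63, -0.53 and -1.01, and in last exons 0.21, 0.65, -0.55 and -1.06. Scaled by the peaks of the library, H3K36me3 changed by 0.074 in promoters, -0.24 in bodies and -0.29 in last exons, and H3K27me3 in bodies by 0.25. Scaled by peaks within 1 Mb, H3K36me3 changed by 0.095, -0.22 and -0.27, and H3K4me3 in bodies by -0.073. Among genes of like length the H3K4me3 body change was -0.075. With a promoter from 0.5 kb upstream, 59.2% of members were active and 28.2% bivalent in LLC-NR (other genes 41.7% and 35.3%). When an overlap of 1 base counted, 56.3% were active and 27.6% bivalent in LLC-NR (other genes 36.1% and 35.0%). In LLC-R it was 53.4% and 27.01% (other genes 35.97% and 37.9%). With the median as threshold, 2.30% were repressive in LLC-R (other genes 5.50%). For H3K36me3 in last exons, the coding part gave medians of 0.26 in LLC-NR and 0.20 in LLC-R. There 8.86% of members reached 1.5-fold in LLC-R, beside 15.2% of the 2677 genes with at least 0.5 kb of coding last exon. A pseudocount of 1 and an overlap of 1 base each gave a median of 0.19 in LLC-R.

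The remaining alternatives for gene body levels were chosen after the data were seen. With at least 90% unique words, H3K4me3 differed from other genes by 0.33 in LLC-NR and 0.22 in LLC-R, H3K9ac by 0.036 and 0.012, H3K27me3 by -0.24 and -0.072, and H3K36me3 by 0.19 and 0.067. Among genes of like length, H3K4me3 differed by 0.14 and 0.062, H3K27me3 by -0.24 and -0.056, H3K36me3 by 0.19 and 0.066, and LLC-R H3K9ac by -0.031. Between the promoter and the last exon, H3K4me3 differed by 0.22 and 0.085, H3K27me3 by -0.42 and -0.19, LLC-NR H3K36me3 by 0.13 and LLC-R H3K9ac by -0.11. With CpG-rich promoters only, H3K27me3 differed by -0.28 and -0.11 and LLC-R H3K9ac by -0.041. Neither a limit of 50 kb, nor counting all gene models (180 models of 176 symbols), nor at least 3 finger matches in the translated gene model moved a value out of its interval. The planned count of fingers in RefSeq proteins was not run. No paired analysis was possible because each line and mark has 1 library. The causes of these changes were not tested. No setting varied depth, and the files hold no read count behind a peak.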
